A study of Mus musculus with 4 samples.

Results

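The clustered protocadherins are cell surface adhesion proteins encoded by 3 neighbouring gene clusters, alpha, beta and gamma, on mouse chromosome 18. The members described here were the protein-coding genes of the GENCODE M21 annotation on chromosome 18 whose symbols belong to these clusters, 57 of 21938 protein-coding genes. They were 12 alpha genes, 22 beta genes, 18 gamma A and B genes, and 5 C-type genes, named Pcdhac1, Pcdhac2, Pcdhgc3, Pcdhgc4 and Pcdhgc5. Separate alpha loci carried the symbol Pcdha11 and were counted as 2 genes. A further matching symbol, Pcdhgb8, is annotated as a polymorphic pseudogene and was not a member.

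In the alpha and gamma clusters each gene has a promoter and a large variable exon of its own, which is spliced to 3 constant exons at the end of the cluster. Beta genes have a variable exon and no constant exons. Single neurons are known to express a few alpha, beta and gamma A and B genes each, chosen with contributions from DNA methylation, CTCF, cohesin and distal enhancers, so that neighbouring neurons carry different surface identities. The C-type genes lie closest to the constant exons and are known for a more uniform expression among neurons, with less dependence on promoter choice.

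The mark measured was H3K27ac, the acetylation of lysine 27 on histone H3, which is found at promoters and enhancers in use. It was mapped by ChIP-seq in tissue from a layer of the hippocampus. The mice were adult males, aged 2 months, of the hybrid strain B6CASTF1/J, a cross of C57BL/6J with the wild-derived CAST/EiJ. The 4 libraries formed 1 group without a treated or mutant arm, from 2 tissue pools (C and D) of 7 biosamples each with 2 technical replicates per pool, and fragments of 200 to 600 bp. The pool was the replicate, and the layer of the hippocampus and its cell types are not specified further in the labels. The data were peak lists on build GRCm38 (mm10): a replicated list of both pools with 88930 peaks, a pool C list with 94836 and a pool D list with 63623. A list from the joined alignments of both pools held 102643 peaks. The lists carry no read totals, and a promoter without a peak was therefore one where none was called at an unknown depth. In bulk tissue, a mark carried by few cells and a low level of the mark in many cells cannot be told apart.

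The tissue label was set against marker promoters. A promoter peak, meaning a peak within 1 kb of any annotated transcription start site (TSS) of the gene, lay at 5 of 5 neuron markers and 9 of 9 glial markers in the replicated list, and at 0 of 5 markers of other tissues, beside 61.6% of all coding genes. In the pool D list 7 of 9 glial markers had one, beside 57.9% of all coding genes.

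Most clustered protocadherin promoters carried no called H3K27ac, while all 5 C-type promoters did. In the replicated list 8 of the 57 genes (14.0%) had a promoter peak, beside 61.6% of all coding genes. The pool C list had one at 10 genes (17.5%), beside 62.3% of all coding genes. The pool D list had one at 4 genes (7.02%), beside 57.9%. In all 3 lists the share among members was well under that of coding genes at large. The C-type genes made up 5 of the 8 in the replicated list, 5 of the 10 in pool C and 4 of the 4 in pool D. Among the 52 other members the counts were 3 (5.77%) in the replicated list, 5 (9.62%) in pool C and 0 in pool D. No gene outside the C-type group therefore had a promoter peak in both pool lists.

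**Figure D1:**
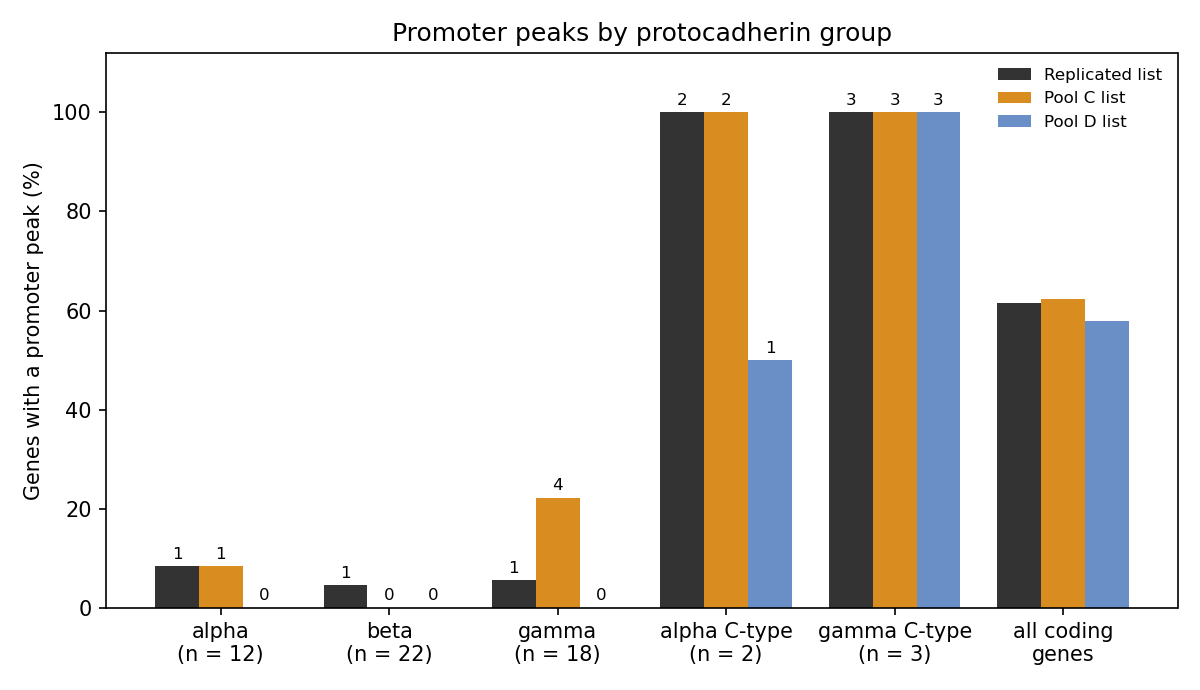
Share of genes with an H3K27ac promoter peak (%), by protocadherin group, in the replicated, pool C and pool D lists, with the number of marked genes above each bar. The alpha and gamma C-type groups reached 100% in the replicated list, and the alpha, beta and gamma A and B groups stood at 8.33%, 4.55% and 5.56%, beside 61.6% of all coding genes.

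The C-type genes differed among themselves in the height of the mark, given here as the authors' peak signal, whose scale no source used here states and which is compared only within a list. Pcdhgc5 (ENSMUSG00000102543.5) is the last variable exon before the gamma constant exons. Its promoter peak had a signal of 23.1 in the replicated list, 26.3 in pool C and 16.0 in pool D. This was the highest signal of any peak in the region examined in the replicated and pool C lists, and the 87.5th percentile among the 13524 coding genes with a promoter peak in the replicated list. In the pool lists it stood at percentiles 87.4 and 84.3, so its place was nearly the same in both.

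Pcdhac2 (ENSMUSG00000102697.1) is the last variable exon of the alpha cluster. Its promoter signal was 16.5 in the replicated list, 19.6 in pool C and 10.1 in pool D, at percentiles 64.0, 66.6 and 48.6 of marked coding genes. The median promoter signal of marked coding genes was 13.8, 15.8 and 10.2 in the same lists, so Pcdhac2 was above it in the replicated and pool C lists and just below it in pool D.

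Pcdhgc3 (ENSMUSG00000102918.1) opens the gamma C-type group. Its signals were 9.29 in the replicated list, 10.4 in pool C and 6.27 in pool D, below the median of marked genes in each. In the replicated list its promoter held 2 peaks, the weaker of which had a signal of 5.31, and the stronger also covered a TSS of the gene BC037039. Pcdhgc4 (ENSMUSG00000023036.14) lies between Pcdhgc3 and Pcdhgc5. It had signals of 7.52, 8.82 and 4.11 in the replicated, pool C and pool D lists, at percentiles 18.8, 19.5 and 4.79. Its place among marked genes was thus lower in pool D than in pool C.

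Pcdhac1 (ENSMUSG00000103255.1) is the first C-type exon of the alpha cluster. It had the weakest C-type mark, with a signal of 4.43 in the replicated list and 4.43 in pool C, and no peak in pool D. That signal was at percentile 6.24 of marked coding genes in the replicated list. The order of the 5 genes, from Pcdhgc5 through Pcdhac2, Pcdhgc3 and Pcdhgc4 to Pcdhac1, was the same in the replicated, pool C and pool D lists, with Pcdhac1 last as unmarked in pool D.

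Outside the C-type group the marked promoters were few and weak. In the alpha cluster, Pcdha5 had a peak of 231 bp with a signal of 3.24 in the replicated list, and no peak of either pool list overlapped it. Pcdha4 had one in pool C alone, with a signal of 4.10, and that peak was also within 1 kb of the start of Gm42416, a readthrough gene. The other 10 alpha genes (Pcdha1 to Pcdha3, Pcdha6 to Pcdha9, both loci named Pcdha11, and Pcdha12) had no promoter peak in any list.

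In the beta cluster, Pcdhb4 had a peak of 199 bp with a signal of 3.01 in the replicated list, 23 bp from its TSS, and no peak of either pool list overlapped it. Pcdhb9 had a peak with a signal of 3.12 in the list from both pools together and in no other list. The remaining 20 beta genes had none. In the gamma A and B group, Pcdhga11 had signals of 3.82 in the replicated list and 4.10 in pool C and no peak in pool D, and its peak also held a TSS of the non-coding gene Gm26672. Pool C alone among the pool lists marked Pcdhgb2 (signal 3.69), Pcdhga6 (4.57) and Pcdhga8 (3.08), and the last 2 also had a peak in the list from both pools together. The remaining 14 gamma A and B genes had none. Of the 8 genes outside the C-type group marked anywhere, 5 were marked in 1 of the 4 lists, 2 in 2 lists and Pcdhga11 in 3. The 3 in the replicated list had signals at percentiles 2.03 (Pcdha5), 1.34 (Pcdhb4) and 3.94 (Pcdhga11) of marked coding genes, all below the lowest C-type value.

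The distance of 1 kb had little bearing on these counts. In the replicated list the farthest marked member was Pcdhb4 at 23 bp, and the nearest unmarked member was Pcdhga12 at 2448 bp, followed by Pcdhgb7 at 4131 bp. The median distance from the main TSS to the closest replicated peak was 25.6 kb for alpha genes, 21.4 kb for gamma A and B genes and 120 kb for beta genes. Within 10 kb on either side of the main TSS, 42 of the 57 members had no base in a replicated peak, and their median was 0 bp. Among all coding genes 33.2% had no base in a peak and the median was 1482 bp. The 5 C-type genes had a median of 6084 bp, and the 3 gamma C-type genes one of 13593 bp.

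The pseudogene Pcdhgb8, which lies between Pcdhga11 and Pcdhga12, carried a stronger promoter peak than any coding gamma A or B gene. Its signals were 6.29 in the replicated list, 6.48 in pool C and 5.26 in pool D, at chr18:37761694-37762604. It was the one promoter of a gamma A or B symbol marked in both pools.

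For most members the variable exon began at the main TSS. A peak at the promoter thus mostly overlapped the exon as well, and the exon counts largely repeat the promoter counts. Replicated peaks overlapped 9 of 57 variable exons, pool C peaks 10 and pool D peaks 4. The ninth exon of the replicated list was that of Pcdhga12, reached by a peak of 220 bp (signal 3.24) at a TSS of Gm26672 that no pool peak overlapped. The exons of the 52 genes outside the C-type group held 1011 bp of replicated peaks in 170305 bp, or 0.594%. The corresponding shares were 1.01% in pool C and 0.0% in pool D. The 5 C-type exons were covered over 76.6% of their bases in the replicated list, 76.7% in pool C and 59.3% in pool D.

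In both clusters the C-type exon next to the constant exons was the most covered one. The exon of Pcdhac1 was covered over 22.5% of its length in the replicated list, 27.8% in pool C and 0.0% in pool D. That of Pcdhac2 was covered over 82.6%, 83.7% and 55.3% in the same order. In the gamma group the exon of Pcdhgc5, which is next to the constant exons, was covered in full in the replicated and pool C lists and over 99.3% in pool D. For Pcdhgc3 the values were 90.2%, 88.9% and 81.4%, and for Pcdhgc4 85%, 80.5% and 60.1%, so the middle gamma exon was the least covered of the gamma C-type group in all 3 lists.

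The constant exons of the alpha and gamma clusters were opposites. The 3 gamma constant exons, used by all 21 gamma members, are 59, 89 and 1971 bp long and lie at chr18:37825021-37825079, chr18:37833265-37833353 and chr18:37839903-37841873. Replicated and pool C peaks covered them in full, and pool D peaks covered the first and second in full and 1741 bp of the last. The 3 alpha constant exons, used by all 14 alpha members, are 59, 89 and 2716 bp long and lie at chr18:37156155-37156213, chr18:37159265-37159353 and chr18:37184946-37187661. No base of them was in a peak of any list.

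The long intron between the second and the last alpha constant exon was marked in 4 places. The strongest peak there, chr18:37177295-37179391, had signals of 9.95 in the replicated list, 11.3 in pool C and 7.55 in pool D, and lay at the TSS of Gm10544. Next to it a peak with no TSS within 1 kb had signals of 4.40, 4.24 and 3.99. The remaining peaks, both at Gm38097, had replicated signals of 4.61 and 2.90 and were found in pool C but not in pool D.

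**Figure D2:**
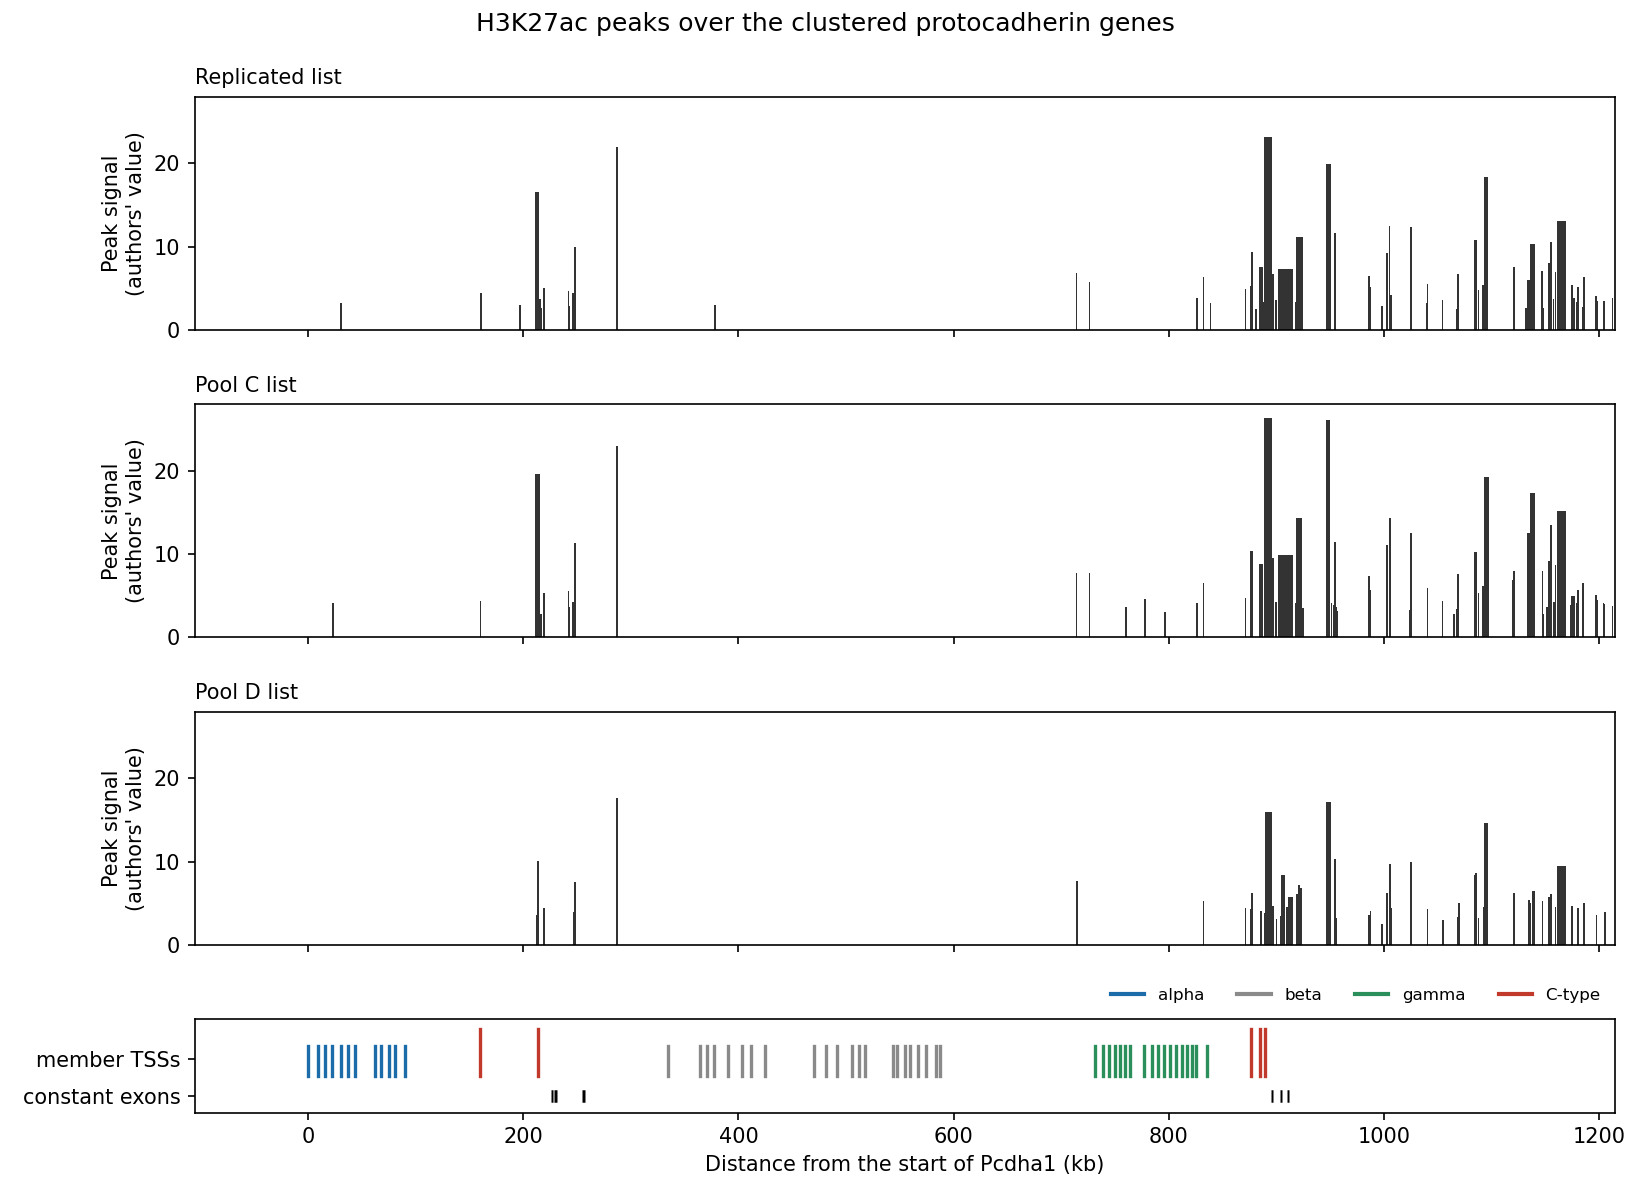
H3K27ac peaks from 100 kb before the start of Pcdha1 to 300 kb after the last gamma exon, with the authors' peak signal on the y axis (3 panels, 1 per list), distance in kb on the x axis, and member TSSs and constant exons below. The alpha, beta and gamma A and B arrays held few peaks, the strongest at 6.29 in the replicated list, and the highest peaks stood at Pcdhac2, between the alpha and beta clusters, at Pcdhgc5 and after the gamma cluster.

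The region from 100 kb before the first to 300 kb after the last gene, chr18:36830184-38141873, held 71 replicated peaks, 71 pool C peaks and 59 pool D peaks. Their median signals were 5.15, 5.53 and 5.03, beside 4.28, 4.86 and 4.61 over all peaks of those lists. Of the 71 replicated peaks 9 lay at member promoters, 19 within 1 kb of another TSS and 43 farther from any TSS. In pool C these numbers were 10, 18 and 43, and in pool D 7, 15 and 37. The distal peaks were thus the largest class in each list. Their share over all peaks of a list was not computed, so this majority is not read as a trait of the region. In the replicated list 32 of the 43 lay in the 300 kb after the clusters.

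Along the clusters the mark was uneven. The alpha array up to Pcdhac1 had 0.145% of its bases in replicated peaks, 0.144% in pool C peaks and 0.0% in pool D peaks. The beta array had 0.0764% in replicated peaks and 0.0% in either pool list. The gamma A and B array had 1.56%, 2.14% and 0.75%. Each of these was below the genome, at 4.37%, 4.51% and 2.37% in the replicated, pool C and pool D lists. The stretch of the alpha C-type genes and constant exons had 11.4%, 11.4% and 5.01% of its bases in peaks, above the genome in all 3 lists. The stretch of the gamma C-type genes and constant exons had 75.7%, 75.7% and 54.9%, the most of any stretch examined in each list. The 100 kb before Pcdha1 held no peak in any of the 3 lists, and the 300 kb after the gamma cluster had 25.4%, 26.5% and 16.9%.

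**Figure D3:**
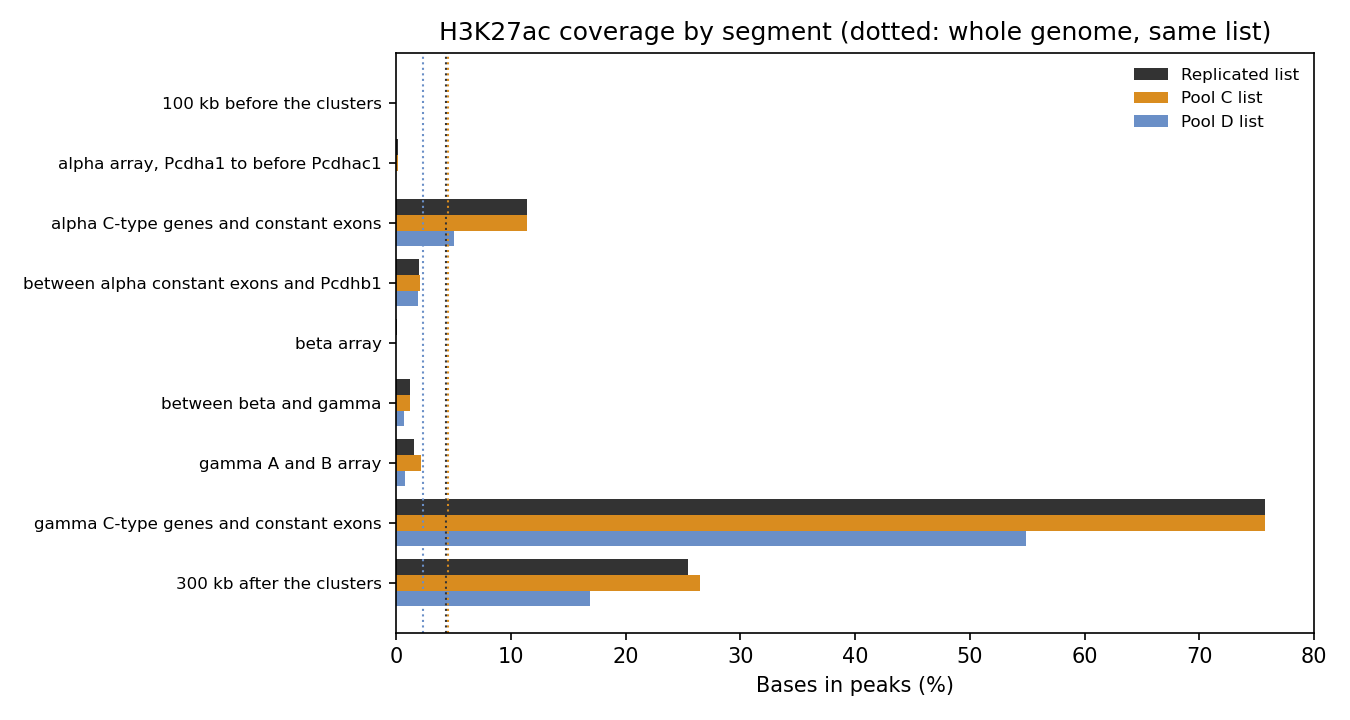
Share of bases in H3K27ac peaks (%) in consecutive stretches of the clusters, in the replicated, pool C and pool D lists; dotted lines give the share over the whole genome in the same list. The stretch of gamma C-type genes and constant exons reached 75.7% in the replicated list, and the alpha, beta and gamma A and B arrays stayed below the genome line of their list.

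The unmarked arrays formed long intervals free of replicated peaks. One of 336 kb (chr18:37307677-37643690) held 19 coding TSSs, those of the 18 beta genes from Pcdhb5 to Pcdhb22 and of Slc25a2. Of 87577 such intervals on the autosomes 1.07% were as long, their median was 4.39 kb, and 48 held at least 19 coding TSSs. Another of 99.6 kb held 16 gamma A and B TSSs, from Pcdhga1 to Pcdhgb7. The alpha genes outside the C-type group lay in intervals of 157 kb, with 4 members, and 129 kb, with 7, separated by the peak at Pcdha5. That peak was overlapped by no peak of either pool list. Of the autosomal intervals 5.09% were at least as long as that of 99.6 kb, 2.91% as that of 157 kb and 3.71% as that of 129 kb. In pool C the interval of 99.6 kb was broken by the peaks at Pcdhgb2, Pcdhga6 and Pcdhga8, and that of 157 kb by the peak at Pcdha4. In the list from both pools together the peak at Pcdhb9 broke the interval of 336 kb.

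The gamma C-type genes and constant exons lay in a broad acetylated stretch. A pair of peaks made up most of it. The first, chr18:37818215-37826118, was 7904 bp wide, reached from before the Pcdhgc5 promoter over the first gamma constant exon, and had the signal of 23.1 given above. It also held a TSS of Gm38182, which lay before that exon. The second, chr18:37831884-37845506, was 13623 bp wide and held the second and last constant exons. Its signals were 7.25 in the replicated list and 9.91 in pool C, and in both its summit lay past the end of the last constant exon. In pool D it was split into 5 peaks, the highest of which had 8.39 and overlapped no constant exon. The pool D peak on the second constant exon had 3.47, and those on the last had 4.61 and 5.82. The width of the replicated peak was at percentile 99.9 of its list.

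When peaks were joined across gaps of at most 10 kb and domains ordered by summed signal times width, this domain of 53.8 kb with 12 peaks took rank 211 of 32474 in the replicated list (the first 0.65%). It ranked 194 of 32815 in pool C and 109 of 26081 in pool D. With gaps of up to 5 kb its extent in the replicated list was the same, at rank 126 of 42827, while in both pool lists Pcdhgc3 fell in a domain of its own. The part from Pcdhgc4 onward then ranked 142 of 43586 in pool C and 88 of 32338 in pool D. With gaps of up to 2.5 kb Pcdhgc3 was apart in the replicated list as well (rank 10653 of 51624), the rest ranked 96, and in pool D the first constant exon was parted from the second and the last. The domain around Pcdhac2, of 8.07 kb with 4 peaks, ranked 3509 of 32474 (10.8%). At each join the gamma domain of the replicated list extended past the last constant exon into the 3′ part of Diaph1, a regulator of actin assembly transcribed from the opposite strand. Its rank at each join thus took in the peak of 6294 bp there, with a signal of 11.1.

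A single strong distal peak lay between the alpha and beta clusters, at chr18:37216790-37218328. It was 1539 bp wide, 29.1 kb after the last alpha constant exon and 46.6 kb before Pcdhb1, and 38268 bp from the nearest annotated TSS. Its signal was 21.9 in the replicated list, 23.0 in pool C and 17.6 in pool D. It was the second highest of the region in the replicated list, at percentile 97.8 of all replicated peaks, and the highest in pool D. An enhancer of the alpha cluster, known by its DNase hypersensitive site HS5-1, is described downstream of the alpha constant exons; its coordinates were not in the sources used here, so the peak was not matched to it. No other peak lay between the alpha constant exons and Pcdhb1 in the replicated, pool C or pool D list.

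Downstream of the gamma cluster the distal peaks were many. The strongest, chr18:37876236-37881181, began 34.4 kb after the last gamma constant exon, inside Diaph1, and was 4946 bp wide. Its signals were 19.9 in the replicated list, 26.1 in pool C and 17.2 in pool D. Its neighbour at chr18:37883741-37885818 had 11.6, 11.4 and 10.3. At chr18:38090528-38098959, 249 kb after the constant exons, a peak 8432 bp wide had 13.1, 15.2 and 9.48. It was part of a domain of 66.4 kb with 18 replicated peaks, at rank 460 of 32474. Between the constant exons and that domain, the peak at chr18:38013777-38016819 had 10.8, 10.3 and 8.60.

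Among the 10 highest replicated signals of the region, the remaining ones lay at promoters or starts of other genes. They were 18.3 at the TSS of AC121886.1, 12.5 at the promoter of Diaph1, 12.4 at the shared promoter of Hdac3, a histone deacetylase, and Rell2, and 11.1 at an internal TSS of Diaph1 and Mir6979. All 10 were overlapped by a peak in both pool lists. Regulatory elements of the beta and gamma clusters are known downstream of the gamma cluster, and none was matched here to a peak by coordinates. The coding genes between the beta and gamma clusters were Taf7, a subunit of the general transcription factor TFIID, with signals of 6.79, 7.71 and 7.73, and Slc25a2, a mitochondrial ornithine carrier, with no promoter peak in any list.

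Support from the separate pools differed along the clusters. Of the 71 replicated peaks 45 (63.4%) were overlapped by peaks of both pools, 17 of pool C alone, 1 of pool D alone and 8 of neither. Over all replicated peaks 54.0% were overlapped by both pools and 14.4% by neither. In the stretch of gamma C-type genes and constant exons 7 of 9 had both pools, in the 300 kb after the clusters 30 of 43, and around the alpha C-type genes and constant exons 4 of 10. The single replicated peaks of the alpha array and of the beta array had neither. With sharing set at 50% of the peak covered, 33 of 71 pool C peaks (46.5%) were shared with pool D and 57 of 59 pool D peaks (96.6%) with pool C. The shares over all peaks were 39.1% and 96.4%. Over the whole genome the pool C list was the longer one, and the part of depth in these differences was not tested.

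Promoter sequence was compared with the mark, from the reference genome. CpG content was taken as observed over expected CpG in the 1 kb around the main TSS, and a promoter was called CpG-rich at 0.6 or more. The median was 0.564 for the members and 0.553 for all coding genes. Among members 22 promoters were CpG-rich: 11 of 12 in the alpha group, 8 of 18 in gamma A and B, 3 of 5 in the C-type group and 0 of 22 in the beta group. Of the 19 CpG-rich promoters outside the C-type group 2 were marked in the replicated list, those of Pcdha5 and Pcdhga11. Over all coding genes 91.8% of CpG-rich promoters were marked. The alpha group was thus nearly all CpG-rich by this ratio and nearly all without the mark. The ratio sets no lower limit on GC content, which had a median of 45.1% in the alpha group and 54.8% over all coding genes. The 91.8% was not matched for GC content.

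Within the C-type group the order by signal differed from the order by CpG content, mainly through Pcdhgc5. Pcdhgc5, with the highest signal, had the lowest value, 0.233, and Pcdhgc3 the highest, 0.796. Pcdhgc4 was at 0.672, Pcdhac2 at 0.681 and Pcdhac1 at 0.564. With Pcdhgc5 set aside, Pcdhac1 was the lowest in both measures, and Pcdhac2 and Pcdhgc3 were the highest in both. A relation between the mark and CpG content was not tested in so few genes. The GC content of the same windows had a median of 55.9% in the C-type group and 44.8% over all members, beside 54.8% over all coding genes.

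**Figure D4:**
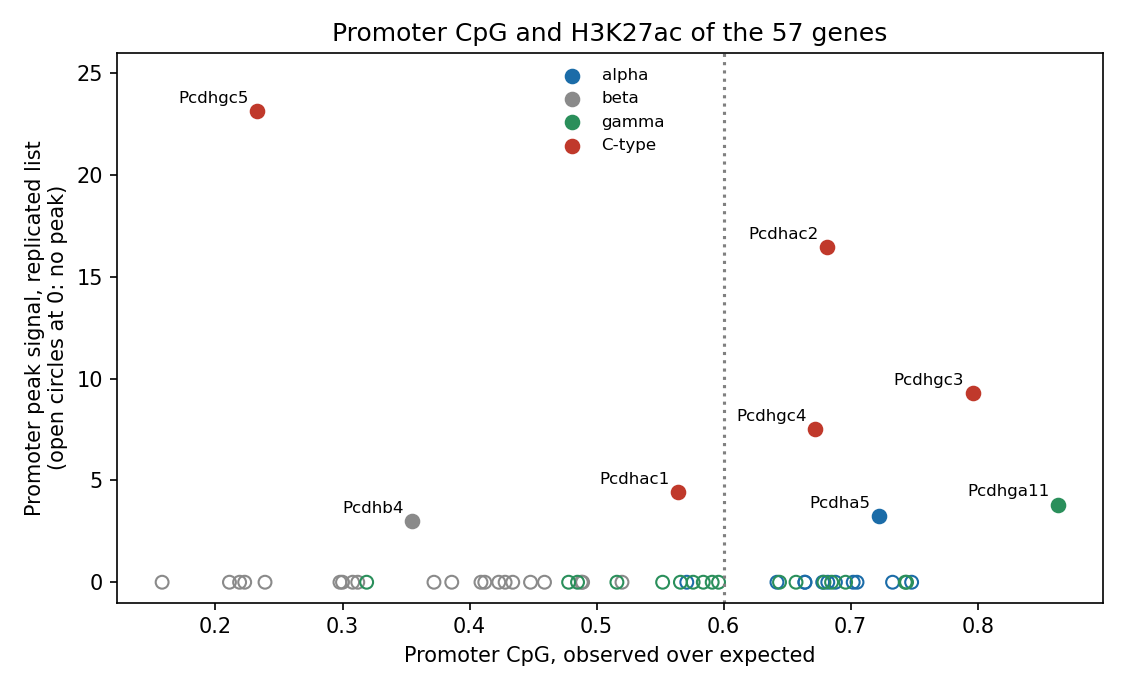
Promoter CpG, observed over expected (x axis), against the promoter peak signal of the replicated list (y axis) for the 57 genes, with open circles at 0 for genes without a peak; the dotted line is the limit for a CpG-rich promoter, 0.6. Pcdhgc5 has the highest signal, 23.1, at a CpG value of 0.233, and 17 CpG-rich members lie at 0.

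Matches to 3 short motifs were counted on both strands from 250 bp before to 50 bp after the main TSS. GGCGCT, which holds the CGCT core of the conserved element known from these promoters, was found at 25 of 57 members (43.9%), beside 18.5% of all coding genes. It was present at 18 of 22 beta promoters, 3 of 18 gamma A and B, 3 of 5 C-type and 1 of 12 alpha promoters. AGGNGGC, a stretch of the CTCF motif that can overlap GGCGCT, was found at 5 members (8.77%), beside 31.8%. These were 2 of 5 C-type promoters and 3 of the 52 others. TATAAA was found at 10 members (17.5%), beside 12.6%, and at 0 of 5 C-type promoters. Among the 8 members marked in the replicated list, GGCGCT was present at 4 and absent at 4. The shares were not matched for GC content, which in the 1 kb around the main TSS had a median of 44.8% over all members and 54.8% over all coding genes. A match or its absence is a description of exact letters in this window. It says nothing of binding, or of sites with other letters or outside the window.

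Sequence uniqueness was measured because near-identical genes can lose reads in mapping. In the 2 kb around each main TSS the median share of stretches of 32 bases that occur once in the reference was 93.9% for the members and 98.5% for all coding genes. It was 88.6% for alpha genes, 99.6% for beta genes, 97.6% for gamma A and B genes and at least 99.2% for each C-type gene. The lowest member, Pcdha7, was at 73.7%. Within the beta group Pcdhb4 to Pcdhb12 lay between 78.6% and 92.5%, below the median of all coding genes. The part of mapping in the peak calls of the members was not tested.

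Protocadherin genes outside the clusters, which have no shared constant exons, served for comparison. Of 12 such genes 11 were marked at the promoter in the replicated list, 12 in pool C and 9 in pool D, beside 61.6%, 62.3% and 57.9% of all coding genes. Among coding genes with CpG-rich promoters the share was 91.8% in the replicated list. The median signal of the marked ones was 12.8 in the replicated list, beside 13.8 for all marked coding genes. Pcdh1 had signals of 27.4, 34.1 and 17.4 in the replicated, pool C and pool D lists. Pcdh9 had 19.5, 23.8 and 9.05, and Pcdh20 had 18.5, 21.5 and 12.5. Pcdh12, a protocadherin of endothelial cells, was the one without a replicated peak, with 7.97 in pool C. Pcdhgc5 and Pcdhac2 stood above the median of this list and the other 3 C-type genes below it.

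Genes for proteins known to act on the clusters, or on cohesin and chromatin more widely, were mostly marked. Of 17 genes for CTCF, cohesin and its loaders, DNA methyltransferases and other chromatin factors, 16 were marked at the promoter in the replicated list, 17 in pool C and 15 in pool D. The shares over all coding genes were 61.6%, 62.3% and 57.9%, and 91.8% over those with CpG-rich promoters in the replicated list. Ctcf, which encodes the insulator protein, had signals of 30.1, 35.5 and 20.1, and Stag1, a cohesin subunit, 24.3, 27.7 and 19.0. Dnmt3a, a DNA methyltransferase, had 20.2, 23.0 and 14.7. Dnmt3b, its relative known for methylating these promoters during development, had no replicated or pool D peak and a signal of 4.34 in pool C. Setdb1, a histone methyltransferase, had 2.79 in the replicated list, 2.84 in pool C and no pool D peak.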

How the data were processed

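H3K27ac ChIP-seq was analysed from 4 libraries of 2 pools, through the peak lists the authors deposited on mm10 (narrowPeak), per the labels. The deposited signal per peak is the authors' value of unstated scale. The authors also deposited a −log10 q value for each peak, which served as a filter. Aligner and peak caller were not given in the sources used here. These lists hold no read totals, so depth is unknown. Strain differences from the reference were not analysed here.

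Genes, exons and TSSs came from GENCODE M21. The variable exon was the largest exon not shared; a constant exon was used by at least 5 genes. All members were accounted for by name or in counts. Named by rule were the C-type genes, the members with a promoter peak in any list, and the peaks with the 10 highest replicated signals. Pcdhgb8, the remaining peaks and neighbouring genes, and the genes named from the lists of other genes were picked after their values were seen. The members and the lists of other genes were chosen with earlier results of these data known. Counts of marked genes stand beside the share over all coding genes, and no test was run. Promoter overlap and covered length were tested on simulated data, motif counts and uniqueness were not. Alternatives were other lists, each pool left out, a −log10 q of 5 or more, signals above the median, other TSS windows, overlaps and regions. Python 3.11.15, numpy 2.4.6, pandas 2.3.3, numba 0.67.0 and matplotlib 3.10.9 were used.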

Additional observations from a re-analysis of the deposited data

How the results depend on the processing

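Of 69 alternatives over 11 results, 56 kept the count within 1.5 times of its main value and 13 moved it further. With peaks above the median signal of their list, clustered genes with a promoter peak went from 8 to 5, which were the C-type genes, variable exons from 9 to 5, region peaks from 71 to 43 and distal peaks from 43 to 25. Under the same setting the shared pool C peaks went from 33 of 71 to 20 of 40 and the shared pool D peaks from 57 of 59 to 33 of 33. Without replicate 1 (pool C), the pool D list alone gave 4 clustered genes, 4 variable exons and 28493 bp of the clusters in peaks, against 44730 bp. A region ending 100 kb after the last gene held 39 peaks, and 28 from the first to the last gene. With at least 50% of the exon overlapped, 4 variable exons counted, and with 50% in both directions 26 pool D peaks were shared.

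Leaving out each pool in turn gave 4 to 10 clustered genes, 4 to 5 C-type genes, 9 to 12 protocadherins outside the clusters, 15 to 17 regulators, 59 to 71 region peaks, 37 to 43 distal peaks, 4 to 10 variable exons, 3 constant exons in either case and 28493 to 45424 bp in peaks. No paired analysis was possible because the 4 libraries form 1 group. Depth is unknown, so a promoter without a peak may lie under the detection limit, and the shorter pool D list cannot be told apart from lower depth. With 2 pools, no spread of signal between replicates was computed, since no source used here states the scale of the signal.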
